A study of Sardinops sagax and Scomber japonicus with 20 samples.

Results

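The complement and coagulation factors are the plasma proteins of 2 protease cascades, and this account follows 43 human gene symbols, 24 for complement and 19 for clotting other than fibrinogen. Members were the rows of 2 result tables whose symbol equalled one of these names, whatever their values. The sardine table held 38 such rows of 6716 (21 complement and 17 clotting, for 23 symbols), and that of the mackerel 48 of 9191 (32 and 16, for 28 symbols). Together these were 86 of 15907 rows, and 20 symbols were found in both species. No row matched C1QA, C1QB, C1QC, C2, C4A, MBL2, F3, F11, F12, F13A1, F13B or KLKB1, and these 12 were not analysed here.

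The tables came from liver RNA of 20 adult male fish, of Pacific sardine (Sardinops sagax) and of Scomber japonicus, the chub mackerel. Of either species 5 fish were unexposed controls and 5 were exposed for 5 h to 12.5 pM ethinylestradiol (EE2), the synthetic estrogen of contraceptive pills; fish of both groups had been acclimated to flow-through seawater at about 17 °C. The fish came from a live bait supplier, and the labels give no strain or exact age. The values were one comparison per species by the authors, with no column per fish.

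Complement is activated by antibody through C1, by sugars on microbes through the mannan-binding lectins and their proteases (MASP), or by the alternative route, in which C3 turns over slowly and is amplified by factors B and D. The routes meet at the cleavage of C3, after which C5 to C9 build a pore in the target membrane. Clotting runs through vitamin K-dependent proteases (factors VII, IX and X) to thrombin, made from prothrombin (F2), with factors V and VIII as cofactors, and is held back by proteins C and S. Hepatocytes make most of these proteins, while factor VIII and von Willebrand factor (VWF) are known mainly from endothelium in mammals. Bony fishes carry several C3 genes, so 1 human symbol can stand for several fish genes.

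Neither table records whether control or exposed fish stand in the numerator, so values are given as higher on the positive or on the negative side, and no difference is assigned to EE2. Called, below, means an adjusted p under 0.05 by the authors' DESeq2 fit, as deposited; values with ± are the deposited log2 fold change and its standard error (SE). The mean normalized counts lay on a grid from which whole numbers, here named recovered reads, were solved. Each mackerel row rested on 1 number per side, and each sardine row on 6, namely 5 for the positive side, from 5 libraries, and a single negative-side number, although the labels give 5 fish to a group. Scaled counts below are a side's recovered reads times their weight in the mean normalized count; both sides add up to that mean in the sardine, while each mackerel mean also holds a constant of 1.66. They are not corrected for transcript length, and levels are compared only between sides, not between genes. Of the mackerel rows with reads on both sides and under 100 reads, all 5032 had a deposited SE smaller than the counting error of the 2 numbers, and so had 2311 of 2440 solved sardine rows with reads on both sides. The SE and the adjusted p therefore hold less than the counting error in these rows, and nothing measured between the fish of the single-number sides.

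In the sardine both arms were higher on the positive side: 17 of 21 complement rows and 16 of 17 clotting rows were called positive, and 0 in either arm was called negative. Over all sardine rows with an adjusted p, 30.5% were positive and 16.1% negative. Calls were more frequent in abundant rows: at a mean of at least 10, where 49.5% of all rows were positive and 30.4% negative, 10 of 11 complement and 11 of 11 clotting rows were positive. Of these 22 member rows, 9 had 0 negative-side reads and so reached that mean through the positive side alone. The median log2 fold change was 6.33 for complement and 2.73 for clotting, against -0.19 over all rows. Much of the size of these medians came from rows with 0 reads on the negative side, 19 of the 33 called rows. With such rows at the bound that 3 reads allow, the medians were 1.40 and 2.04; these bounds hold no counting error of the positive side.

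Most rows at 0 on the negative side, 16 of those 19, were predicted RefSeq transcripts of zebrafish, the names under which sardine reads were counted. Over all rows with a mean of at least 10, 87.7% of predicted records were at 0 there, against 7.72% of curated ones, and whether the counting used 1 transcript set for both sides was not tested. Of the predicted member rows with such a mean 9 of 10 were at 0 there, close to that share, and the bounds given below for predicted rows carry this limit. At any mean, 12 of 13 predicted complement and 5 of 6 predicted clotting rows were called positive. Among all predicted rows with an adjusted p, 1129 of 2137 were positive and 88 negative. In curated records 5 of 8 complement rows and all 11 clotting rows were called positive, beside 19.7% of all curated rows (21.8% were negative), with medians of 2.17 and 2.04 against -1.04. At a mean of at least 10, 3 of 4 curated complement and 8 of 8 curated clotting rows were positive. Among all such curated rows with an adjusted p, 323 of 789 were positive and 280 negative, and the median of all such rows was -0.21. With predicted rows included, 468 of 946 were positive, so most predicted rows of that mean were positive too. Over curated rows of any mean, the complement median was 0.37 with rows at their bound. With reads on both sides, 3 of 5 complement rows and 11 of 11 clotting rows were called positive, where 13.2% of all such rows were positive and 24.4% negative. These 14 rows had ratios of the sides between 2.31 and 31.8.

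C3, the protein on which all complement routes converge, had 6 sardine rows that did not move together. The curated row NM_131243.1 had 70.4 scaled counts on the positive side against 2.21, from an estimated 5 reads, and the authors' deposited table put it at 4.97 ± 0.48 (adjusted p 9.64e-23). The other curated C3 row, NM_001037236.1, had 20.8 against 28.3 from an estimated 64 reads, and was not called; the authors' deposited table put it at -0.44 ± 0.67, adjusted p 0.563. These 2 rows thus lay on different sides of 0, though the second was within its SE of 0. Whether reads of similar C3 copies were split between them in the counting was not tested. The other predicted rows but one held 62.8 to 75.6 scaled counts and no negative-side read, so that the positive side exceeded 3 negative-side reads by at least 47.3-fold to at least 56.9-fold. The sixth row held 3 reads in all and was not called.

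Of the alternative route, factor B (CFB), which carries the protease of the C3 convertase, was called positive in its most abundant row, which the authors' deposited table put at 1.22 ± 0.35, adjusted p 0.00391. That row held 22.5 scaled counts against 9.74, from an estimated 22 negative-side reads. A predicted CFB row was at least 11.98-fold higher there, and the remaining CFB row held a single read, on the negative side. Factor D (CFD), the protease that cleaves factor B, had 0, 2, 2, 3 and 6 reads in the 5 positive-side libraries and 0 on the negative side. CFD was called, but 3 negative-side reads would have equalled its level, so these reads give it no direction. Factor I (CFI), the protease that inactivates C3b, was at least 23.1-fold higher there in its predicted row.

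The classical and lectin routes were thinly counted in the sardine. C4B, part of the classical C3 convertase, had 1, 0, 5, 3 and 1 reads in the positive-side libraries, and the C4 inhibitor C4BPA 0, 7, 4, 8 and 1. MASP2, the protease of the lectin route, had 0, 8, 8, 7 and 10 reads in its more abundant row. All 3 had 0 negative-side reads and were called. The bounds were at least 2.64-fold higher for MASP2 and at least 1.67-fold for C4BPA, while that of C4B was under 1 and gave no direction.

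Among the pore proteins, C8A was called positive; the authors' deposited table put it at 3.11 ± 0.65, adjusted p 3.86e-05, with 19.5 scaled counts against 2.21. The predicted rows of C7 and C8B, which insert into the pore, had no negative-side read and had bounds of at least 9.85-fold and at least 9.69-fold higher. A second C7 row, at least 5.09-fold higher, had 1, 21, 11, 13 and 16 positive-side reads, and its library of 1 read stood below the other four. C5, whose cleavage starts the pore, had 3, 5, 5, 5 and 1 reads and a bound of at least 1.69-fold. C6, the next protein to join, was not called, with 2 negative-side reads and 0, 2, 0, 0 and 1 on the positive side (-1.38 ± 1.12 in the authors' deposited table).

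The clotting arm held the best counted rows of the sardine. Prothrombin F2 had 1784 scaled counts on the positive side against 439, from an estimated 992 negative-side reads, and the authors' deposited table put it at 2.02 ± 0.11, adjusted p 2.15e-79. Plasminogen PLG, the precursor of the clot-dissolving protease plasmin, had 1858 against 564, the latter from an estimated 1273 reads, and stood at 1.72 ± 0.22 (adjusted p 1.42e-12). No other member rows of the sardine had more than 64 negative-side reads.

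The vitamin K-dependent factors VII, IX and X were called positive in all 7 of their rows, and differed in size. Factor IX had 45.7 scaled counts against 16.4 and stood at 1.47 ± 0.29, and its second row at 1.499 ± 0.538, in the authors' deposited table. In that second F9 row the positive-side libraries held 3, 6, 12, 17 and 9 reads and the negative side 4. Factor VII, which starts clotting together with tissue factor, stood at 1.74 ± 0.32 and 2.73 ± 0.63 in its 2 rows. Factor X, the protease that makes thrombin, stood at 2.48 ± 0.38 and 2.28 ± 0.54 in the authors' deposited table, and its remaining row was at least 6.74-fold higher. Protein Z (PROZ), a cofactor for the inhibition of factor X, stood at 2.04 ± 0.73 (adjusted p 0.0193) from an estimated 5 negative-side reads.

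Among cofactors and inhibitors, factor V had 12, 12, 19, 23 and 19 reads in the 5 positive-side libraries and 1 on the negative side (4.34 ± 0.72 in the authors' deposited table, adjusted p 8.84e-08). After scaling, every positive-side library of F5 lay above the negative side. Protein C (PROC), the anticoagulant protease, had 374 scaled counts and no negative-side read in its predicted row, at least 281-fold higher, the highest bound of all members. To be at 0 there was usual for predicted records, at 87.7% of those with a mean of at least 10. The size of such a bound follows from the positive-side counts alone. Protein S (PROS1), its cofactor, had 0, 2, 3, 2 and 3 reads and 0 on the negative side, and factor VIII 0, 1, 1, 3 and 0; F8 was the clotting row that was not called. The bounds of PROS1 and F8 were under 1. Vitronectin (VTN), a plasma adhesion protein that also binds the complement pore, stood at 2.95 ± 0.53 in its curated row, with 24.1 scaled counts against 3.10. Its more abundant row, a predicted record, had 31.2 scaled counts and no negative-side read, at least 23.5-fold higher.

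**Figure D1:**
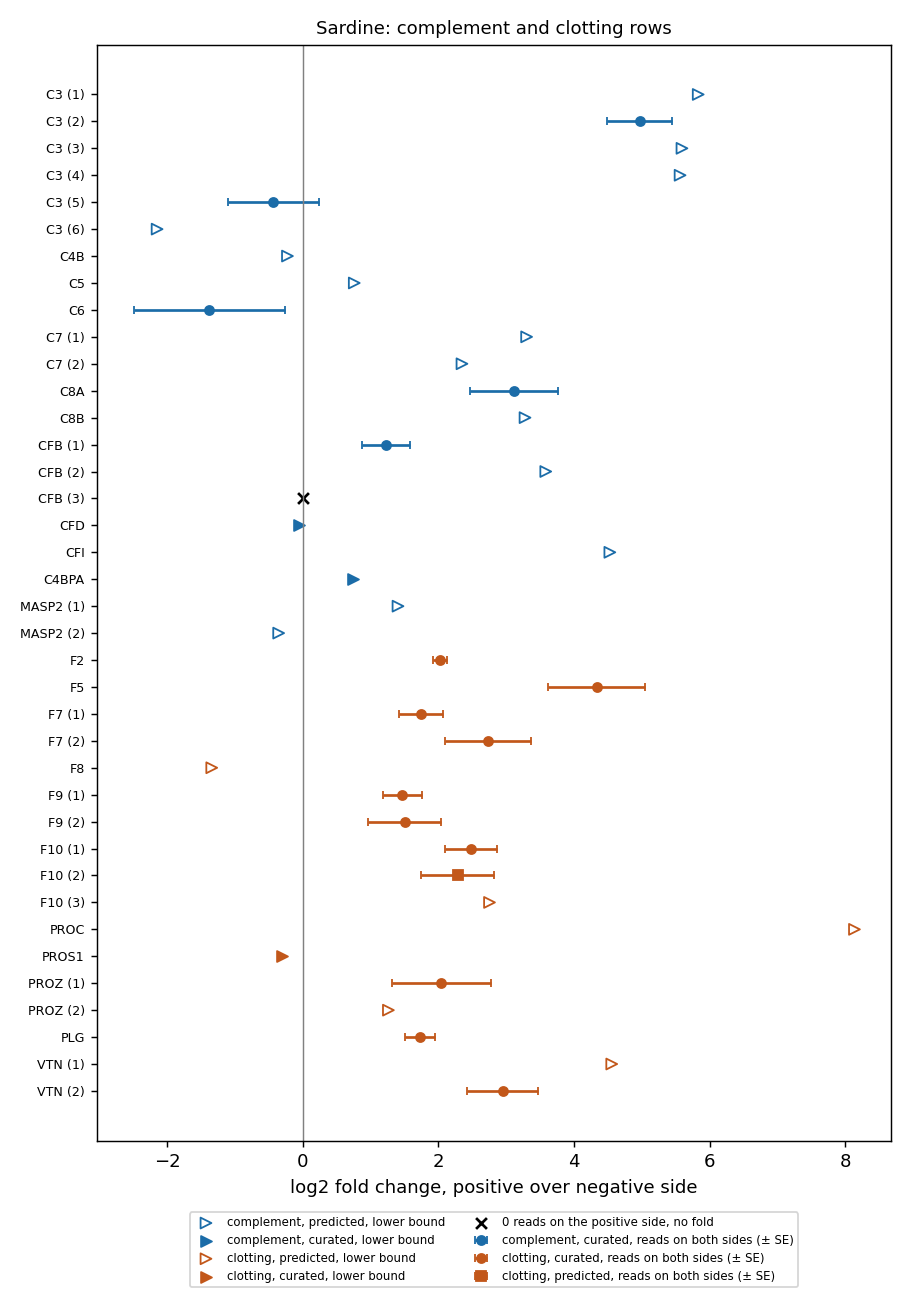
Log2 fold change (horizontal axis, positive over negative side) of the 38 sardine rows, numbered within a symbol from the highest mean; circles and squares are the authors' deposited fold change ± SE where both sides had reads, and triangles the lower bound against 3 reads where the negative side had 0. The 11 clotting rows with reads on both sides all lie right of 0, while C3 (5) and C6 lie left of it. The triangles of C3 (6), C4B, CFD, MASP2 (2), F8 and PROS1 also lie left of 0 and give no direction. The cross at 0 is CFB (3), with 0 reads on the positive side.

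In 16 member rows, those with a mean of at most 10, every positive-side library could be read. Library 1, named by its weight in the grid and not tied to a fish, had reads in 6 of these rows, library 2 in 12, and the other libraries in 14 each. Each library's scaled counts were here multiplied by 5, which puts 1 library on the scale of a whole side. On that scale the sums of libraries 1 to 5 were 24.8, 50.2, 70.5, 51.3 and 37.3. The negative side, not multiplied, had 3.54. Library 1 was thus the lowest and library 3 the highest, and each of the 5 exceeded the negative side. That excess follows largely from which rows these are, since the negative side had reads in only 4 of the 16. In unscaled reads, libraries 1 to 5 had 35, 77, 109, 117 and 91 in the member rows, and the negative side 8. Over all solved sardine rows they had 9078, 8666, 10151, 15564 and 14349, and the negative side 11913. No library lay far enough from the rest in any of the 12 rows with at least 10 positive-side reads to pass Dixon's critical value.

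**Figure D2:**
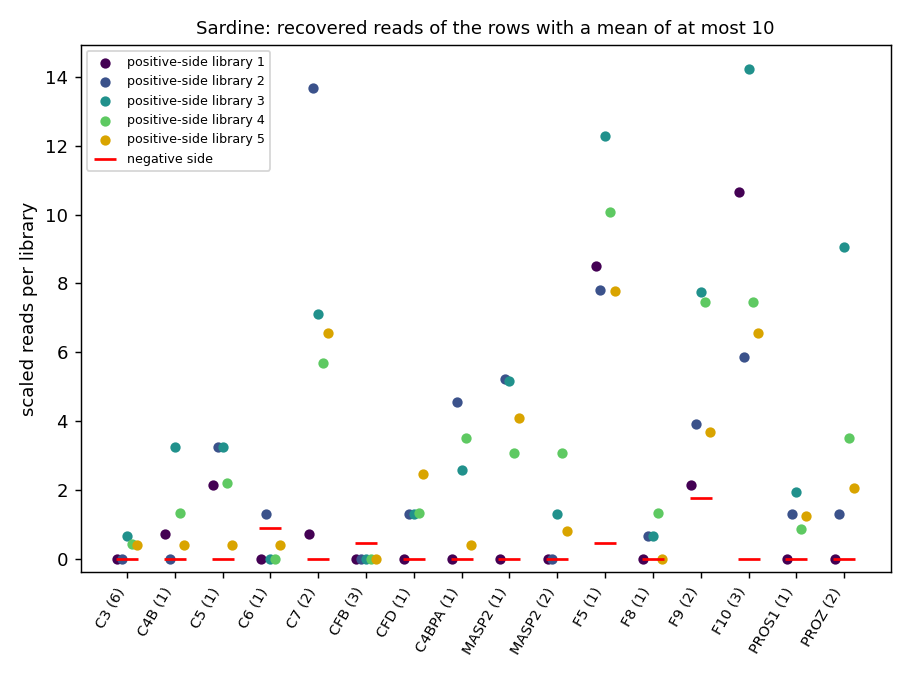
Scaled reads per library (vertical axis) for the 16 sardine member rows with a mean of at most 10; points are the 5 positive-side libraries, each multiplied by 5, and red bars the negative side, not multiplied. The negative side is at 0 in 12 of the rows, and F5 and F10 (3) show all 5 libraries above it.

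Markers of other cell types moved with the sardine comparison. In rows for striated muscle markers, 33 of 42 were called negative and 2 positive, and their summed scaled counts were 17.9 against 5098 (positive, then negative side). Fibroblast and stellate markers (7 of 8 rows negative, 5.19 against 60.2) and erythrocyte markers (3 of 4 negative, 9.75 against 36.3) were higher on the same side, as were 2 of 3 endothelial rows (1.24 against 7.97). Leukocyte markers were mixed, with 1 of 9 rows positive and 2 negative. Hepatocyte markers, which held no member, were called positive in 20 of 21 rows. In curated records alone their summed ratio was 4.86, that of the members 3.63, and that of all rows 1.44. The hepatocyte sum was mostly fibrinogen, a clotting protein left out of the members. FGG held 14397 and FGB 3867 of its 21265 positive-side scaled counts. The members' sum was mostly F2 and PLG. They held 1784 and 1858 of the curated members' 3931 positive-side scaled counts, and 439 and 564 of 1082 on the negative side. The part of the other tissues in the members' values was not tested, and in bulk liver fewer cells of a type and less RNA per cell cannot be told apart.

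The members made up 4.31% of the summed counts on the sardine positive side and 1.96% on the negative side. When both sides are set to the same total, every sardine fold change drops by 0.96 on the log2 scale. The curated members' summed ratio, mostly that of F2 and PLG, is then 1.87. That total includes predicted records. The ratio of the sides was 1.95 over all rows and 1.44 over curated rows, so a curated total would lower the members less. All 14 called rows with reads on both sides stayed above 0 at equal totals, some of them narrowly. The drop left the abundant CFB row (1.22 ± 0.35 as deposited) above 0 by less than its SE. The second F9 row (1.499 ± 0.538 as deposited) was left above 0 by about its SE. The bounds of C5 and C4BPA came to under 1.

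Most other rows of the cascades were also called positive in the sardine, where 30.5% of all rows were. Of 13 rows for clotting inhibitors, fibrinolysis, receptors and vitamin K enzymes, 11 were called positive and 0 negative, and 6 of the 11 had 0 negative-side reads. Antithrombin SERPINC1, the main thrombin inhibitor, stood at 3.14 ± 0.54, heparin cofactor SERPIND1 at 2.99 ± 0.56 and the carboxypeptidase CPB2, which slows clot lysis, at 3.11 ± 0.44 in the authors' deposited table. The tissue factor pathway inhibitor TFPI (0.11 ± 0.81) and the thrombin receptor F2R, with a single read, on the negative side, were not called. Of 5 rows for complement regulators and receptors 4 were positive, 3 of them with 0 negative-side reads, and the leukocyte integrin ITGB2 was negative at -2.93 ± 1.13.

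In the mackerel most complement calls were negative, and clotting calls were evenly split. Of 32 complement rows 11 were called negative and 1 positive, where 10.8% were negative and 14.1% positive among all mackerel rows with an adjusted p. C3 alone held 12 of these complement rows and 5 of the negative calls. Of the called complement rows 4, all negative, held under 10 reads. With 1 row per symbol, 5 of 16 complement rows were negative (C8A, CFB, CFD, CFP and MASP1) and 1 positive. Among those 5, the exact test described below called only C8A and CFB. Of 16 clotting rows 4 were called negative and 4 positive. The median log2 fold change was -0.48 for complement and -0.43 for clotting, against 0.04 over all rows. Among rows with a mean of at least 10, complement had 6 of 22 negative and 1 positive and clotting 3 of 12 negative and 4 positive, beside 15.4% and 25.7% of all such rows, and the clotting median was -0.04.

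Member rows of the mackerel held 2 to 9085 recovered reads. Each was also put to an exact two-sided binomial test of its 2 numbers against a positive-side share of 55.3%, adjusted over all 9191 rows by the Benjamini-Hochberg method. That exact test called 3 complement rows positive and 8 negative, and 3 clotting rows positive and 4 negative, while it called 2.07% of all rows positive and 2.0% negative. These shares are not matched for reads, on which this test depends. Complement rows had a median of 137.5 reads and clotting rows 48.5. The median mean normalized count over all mackerel rows was 3.48, including the constant of 1.66. A share among rows of similar reads is not given here. Among the 8 negative complement rows were 3 C3 rows of at least 1000 reads and 2 C3 rows under 100 reads. In the most abundant row of each symbol, it called C3, C8A, CFB and CFI negative and C7, C8B and C9 positive. Of these only the CFI call was lost with equal totals. With both sides set to the same total the exact test called 3 and 7 complement rows and 4 and 2 clotting rows. Both tests made the same call in 10 member rows and opposite calls in 0. The 8 rows called by the exact test alone had at least 554 reads, and the 10 called in the authors' deposited table alone had at most 156. The exact test compares 2 totals and holds no spread between fish.

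The 12 C3 rows of the mackerel all had fewer scaled reads on the positive side, and 2 of them came to lie above 0 when both sides were set to the same total. Summed, C3 had 9362 positive-side reads against 11017, a ratio of 0.687 (exact 95% interval 0.669 to 0.707), or 0.751 after setting totals equal. The most abundant row, fugu gene model 741440, had 4165 against 4920 reads, a ratio of 0.685 (0.657 to 0.714), and model 623023 had 3335 against 3863, a ratio of 0.698 (0.666 to 0.732). In the next, model 709421, the counts were 1300 and 1656. The exact test called these 3 rows, while by the authors' deposited table they were not called (adjusted p 0.108, 0.120 and 0.0524).

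The other C3 rows spread widely. The 4 rows of at least 100 and under 1000 reads had ratios of 0.707 to 0.996 and none was called. Model 746482 had 7 reads against 35, a ratio of 0.162 (0.0606 to 0.370), and the authors' deposited table put it at -2.24 ± 0.24, adjusted p 1.16e-17. Model 737199 had 11 against 30, a ratio of 0.297 (0.134 to 0.609), and stood at -1.54 ± 0.22. Both were called by the exact test too. Models 747513, 736402 and 617649 had 4 reads against 7, 1 against 4 and 0 against 3. All of these were called negative in the authors' deposited table and none by the exact test. The interval of model 746482 lay below those of the 3 abundant rows, while that of 737199 overlapped the one of model 709421 (0.590 to 0.683). How reads of near-identical C3 copies were shared out in the counting was not tested.

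Factors of the alternative route that act with C3 lay on the same side. The abundant CFB row had 1068 reads against 1451, a ratio of 0.595 (0.550 to 0.645; exact adjusted p 6.33e-36), and the authors' deposited table put it at -0.71 ± 0.25, adjusted p 0.0236. CFD had 26 against 38 (-0.79 ± 0.22) and properdin CFP, which stabilises the C3 convertase, 4 against 12 (-1.41 ± 0.29). CFD and CFP were called in the authors' deposited table and not by the exact test, with ratios of 0.553 (0.323 to 0.936) and 0.270 (0.0634 to 0.890). For CFI the exact test called a small difference, 2131 against 1948 reads and a ratio of 0.885 (0.832 to 0.941). That call was lost with equal totals, where the exact adjusted p was 0.961.

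The classical and lectin routes showed no call on more than 7 reads. C1R, a protease of the C1 complex, had 100 reads against 69, a ratio of 1.17 (0.854 to 1.62), and C4B had 132 against 134, a ratio of 0.797 (0.622 to 1.02). The interval of neither excluded 1. C1S had 1 read on each side, C4BPA 1 against 2, and the second C1R row 4 on each side. Of 3 rows for MASP1, the lectin-route protease, one with 2 reads against 5 was called negative in the authors' deposited table (-0.98 ± 0.36) and not by the exact test.

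The pore proteins went in different directions. C7 had 511 reads against 217, a ratio of 1.905 (1.62 to 2.24; exact adjusted p 2.58e-14), and the authors' deposited table put it at 0.89 ± 0.25, adjusted p 0.00339. C8B had 1534 against 796, a ratio of 1.56 (1.43 to 1.70), and C9, which forms the body of the pore, 2967 against 1662, a ratio of 1.44 (1.36 to 1.53). Both were called positive by the exact test and not in the authors' deposited table (adjusted p 0.0595 and 0.118). C8A, which joins C8B in the same complex, lay on the other side with 303 against 447 reads, a ratio of 0.548 (0.472 to 0.636; exact adjusted p 5.03e-14), and was called negative in the authors' deposited table too (-0.83 ± 0.25). The intervals of C8A and C8B did not overlap.

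C8G, the remaining chain of that complex, had 676 reads against 598, a ratio of 0.914 (0.818 to 1.02), and was not called; with equal totals its sign changed. C5 had 59 against 47, a ratio of 1.02 (0.680 to 1.52). A second C7 row, with 2 reads against 6, was called negative in the authors' deposited table at -1.16 ± 0.35, opposite to the abundant C7 row, but its exact interval of 0.0266 to 1.51 included 1.

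**Figure D3:**
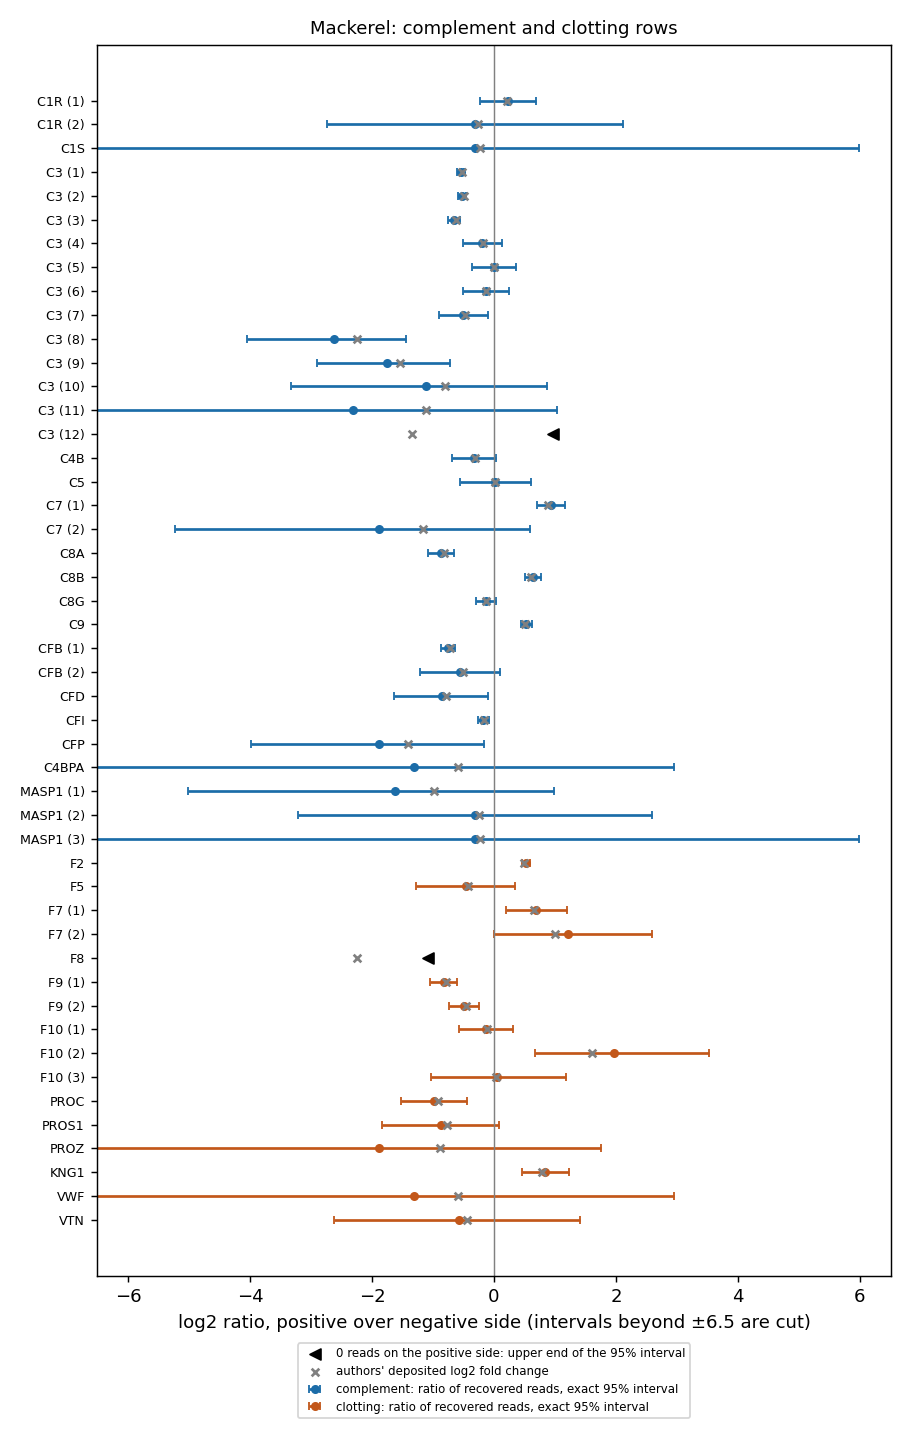
Log2 ratio of the sides (horizontal axis, positive over negative) for the 48 mackerel rows, numbered within a symbol from the highest mean; points are ratios of recovered reads with exact 95% intervals and crosses the authors' deposited fold changes. C7 (1), C8B and C9 lie right of 0 with narrow intervals, and C8A, CFB (1) and C3 (1) to (3) left of it.

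The clotting arm of the mackerel was split between factors. Prothrombin F2 had 5115 reads against 2880, a ratio of 1.44 (1.37 to 1.504; exact adjusted p 2.80e-53), while the authors' deposited table gave 0.50 ± 0.25 (adjusted p 0.118). Factor VII was positive in both rows, with 104 against 52 reads (0.66 ± 0.23) and 23 against 8 (1.002 ± 0.236) in the authors' deposited table. Its ratios of 1.62 (1.15 to 2.30) and 2.33 (1.004 to 6.01) were not called by the exact test, where the first had an adjusted p of 0.0997, or 0.0207 with equal totals. Kininogen KNG1, the precursor of bradykinin and a cofactor of contact activation, had 183 against 83 and a ratio of 1.78 (1.37 to 2.34), called by both tests.

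Factor IX, the protease that works with factor VIII, lay on the negative side. Its abundant row had 288 reads against 413, a ratio of 0.564 (0.484 to 0.657), and the authors' deposited table put it at -0.79 ± 0.25, adjusted p 0.0109. The second F9 row had 260 against 294 and a ratio of 0.715 (0.603 to 0.848), which the exact test called (adjusted p 0.00323) but not with equal totals (0.0829). F8 had 0 reads against 8, with an upper end of the ratio's exact interval of 0.474, and stood at -2.24 ± 0.40; its exact adjusted p was 0.0405, or 0.0551 with equal totals.

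The 3 factor X rows did not move together. The row of fugu gene model 119753 had 29 reads against 6, a ratio of 3.91 (1.59 to 11.5), and stood at 1.60 ± 0.25, called by both tests. The most abundant F10 row had 95 against 84 (0.915, 0.675 to 1.24), with a sign that changed under equal totals, and the remaining row 18 against 14 (1.04, 0.489 to 2.26). Factor V had 26 against 29, a ratio of 0.725 (0.410 to 1.28), and was not called.

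The anticoagulant proteins C and S were both called negative in the authors' deposited table. PROC had 49 reads against 78, a ratio of 0.508 (0.348 to 0.736), and stood at -0.92 ± 0.23, called by the exact test as well. PROS1 had 17 against 25 (-0.77 ± 0.21), with a ratio of 0.550 (0.279 to 1.06) that the exact test did not call. PROZ with 1 against 3 reads, VWF with 1 against 2 and VTN with 5 against 6 were not called.

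**Figure D4:**
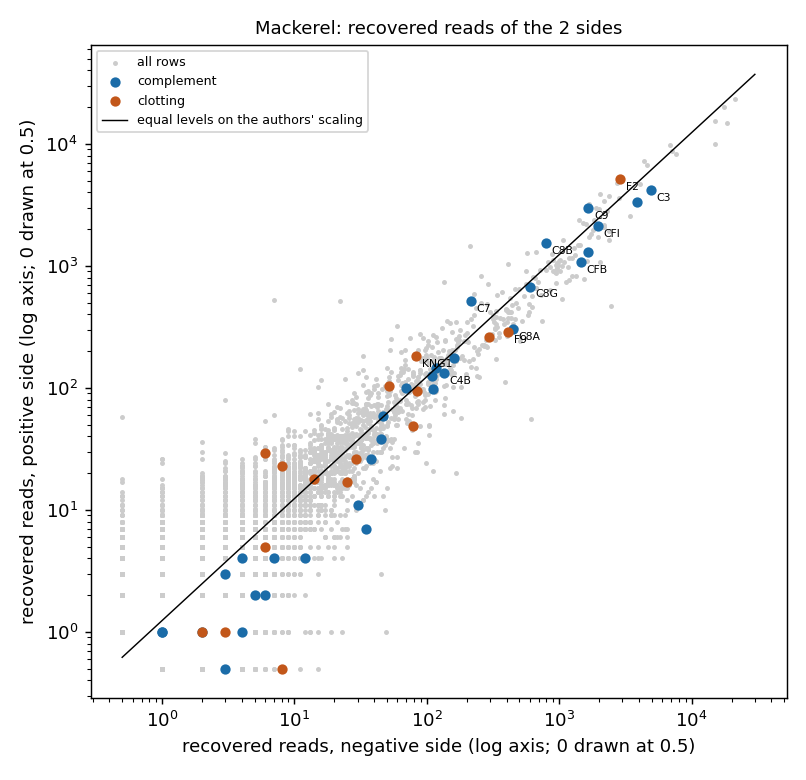
Recovered reads of each mackerel row on the negative (horizontal) and positive side (vertical), both on log axes, with 0 drawn at 0.5; grey points are all 9191 rows, coloured points the members, and the line marks equal levels on the authors' scaling. F2, C9, C8B, C7 and KNG1 lie above the line, and C3, CFB and C8A below it.

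The members took almost the same share of both mackerel sides, 6.68% of the positive and 6.76% of the negative reads. Their arms differed in this. Complement summed to 8618 scaled counts against 10416, a ratio of 0.827, and clotting to 2830 against 2243, a ratio of 1.26, beside 0.916 over all rows. F2 held 5115 of the 6214 positive-side and 2880 of the 3985 negative-side clotting reads. Setting both sides to the same total raised every fold change by 0.13 on the log2 scale. Hepatocyte markers were split (5 rows positive and 5 negative of 21 with an adjusted p), with a summed ratio of 0.699. Most of that sum came from the fibrinogen chains FGA, FGB and FGG. Striated muscle markers were few, at 20.04 scaled counts against 39.4, with 3 of 14 such rows negative and 1 positive. Fibroblast and stellate markers had 6.83 against 21.4 scaled counts and 3 of 6 rows negative. Leukocyte markers had 1 negative row of 6, while endothelial (2.73 against 2.25 scaled counts) and erythrocyte rows (4.55 against 3.38) held no call. Of the thrombocyte markers 1 row was found, at 0 on the positive side, and none was found in the sardine. The part of these cell types in the members' values was not tested.

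Of 20 mackerel rows with an adjusted p for clotting inhibitors, fibrinolysis, receptors and vitamin K enzymes, 4 were called positive and 3 negative. Among all mackerel rows with an adjusted p, 14.1% were called positive and 10.8% negative. VKORC1L1, a paralogue of the vitamin K reductase, had 206 reads against 86, a ratio of 1.94 (1.499 to 2.52). Antiplasmin SERPINF2, the inhibitor of plasmin, had 49 against 89, a ratio of 0.445 (0.308 to 0.638), and both rows were called by both tests. A further VKORC1L1 row had 7 against 10 reads and a further SERPINF2 row 11 against 8, and neither was called. SERPINA5 was called in both directions by both tests, with 206 against 97 reads in one row and 310 against 473 in another. SERPINC1 had 141 against 88, a ratio of 1.30 (0.986 to 1.71), and was not called. Of 7 rows for complement regulators and receptors 1 was called, the mitochondrial protein C1QBP, at 1.08 ± 0.23 in the authors' deposited table.

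Of the 20 symbols held by both tables, 16 had a fold or a bound above 1 in the sardine in their most abundant row, all on the positive side. In 8 of the 16 this was only a bound, and all of these but C4BPA were predicted records, C7 and PROC among them. Over all sardine rows with a mean of at least 10, 87.7% of predicted records were at 0 on the negative side. In the mackerel 5 of the 16 symbols lay above 0 (C5, C7, C8B, F2 and F7) and 11 below. Several lay near 0 or were thinly counted there. C5 stood at 0.02 ± 0.22, and C4BPA, PROZ and VTN rested on 3, 4 and 11 reads. The sign of F10 changed with equal totals. The same counts over all symbols held by both tables are not given here, so these numbers only describe the members. The authors' deposited tables called C7 and F7 positive in both species. They called 6 positive in the sardine and negative in the mackerel, namely C8A, CFB, F9, PROC, CFD and PROS1, with F9 at 1.47 ± 0.29 and -0.79 ± 0.25; the sardine reads of CFD and PROS1 give no direction, as stated above. Among the 8 of these symbols with reads on both sides in the sardine, 2 lay above 0 in the mackerel and 6 below. The 4 symbols whose sardine reads give no direction (C4B, CFD, F8 and PROS1) lay below 0 in the mackerel. Whether a gene differed between the species was not tested, since each table was normalized separately and the side of the exposed fish is not recorded in either.

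**Figure D5:**
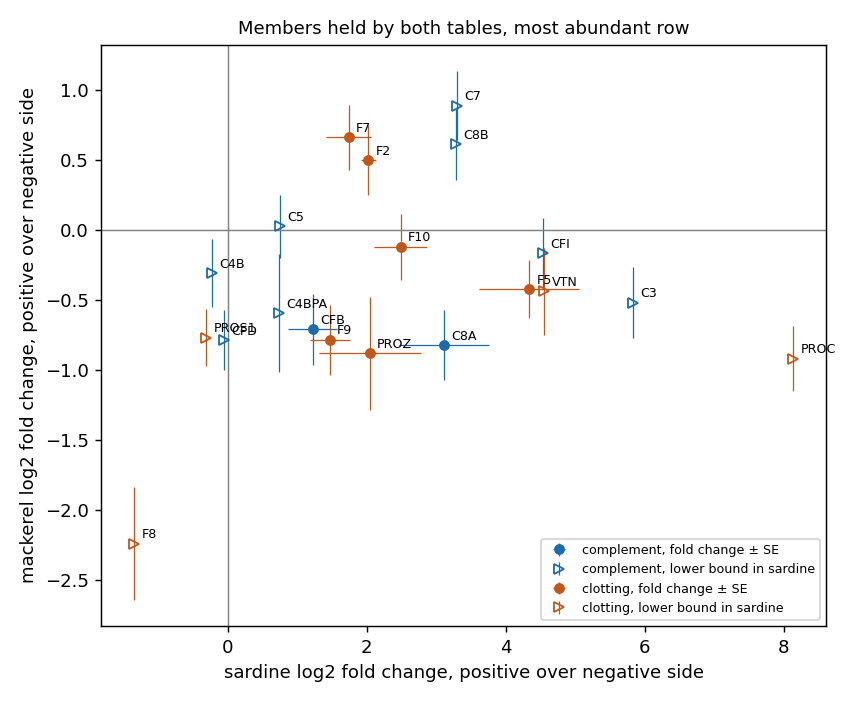
Log2 fold change in the sardine (horizontal axis) and the mackerel (vertical axis) for the 20 symbols of both tables, each in its most abundant row; circles carry the authors' deposited SE on both axes, and triangles are lower bounds in the sardine. F2, F7, C7, C8B and C5 lie above 0 on both axes.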

How the data were processed

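The submitters' processing notes name DESeq2, CASAVA 1.8 and GRCz10, a zebrafish build; which aligner and counter the authors ran, and in which version DESeq2, is not given in the sources used here. Per the file headers the deposited values are DESeq2's mean normalized count (a signal), log2 fold change with SE, Wald score, and raw and adjusted p-value. Depth per fish is unknown. Rows are zebrafish transcripts (sardine) or fugu gene models (mackerel), and neither table holds fish coordinates.

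Whole numbers behind the means were solved for all 9191 mackerel rows (largest residual 3.47e-06) and for the 5738 sardine rows with a mean of at most 10. Each of these sardine rows was left with 1 solution. Where several fitted the mean, the deposited fold change was used to choose. Above a mean of 10, the sardine negative-side number was estimated from mean and fold change, an estimate within 1 read in 1370 of 1370 solved rows. Those rows all had a mean of at most 10, so the error of larger estimates, such as those of F2 and PLG, was not checked. In 4 mackerel rows, none a member, more than 1 pair lay near the fold change. The constant of 1.66 in the mackerel means has no stated source. Recovery and exact test were also run on simulated reads without spread between fish, and the outcome is not given here. Such reads cannot show how the exact test behaves where fish differ. Mackerel reads summed to 376343 and 332486. Ratios carry exact Clopper-Pearson 95% intervals; intervals and the floor of 3 counts cover counting error only, since PCR reads are not independent molecules. The exact test used SciPy 1.17.1 under Python 3.11.15. Members and lists were chosen with earlier results of these data known; the limits of 10 for solving and for seeking distant libraries, the equal totals and the subset with reads on both sides were chosen after seeing the data. Rows called with a mean of at least 10, and symbols found in both tables, were to be named with values; others were named after their values were seen. No library was left out.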

Additional observations from a re-analysis of the deposited data

How the results depend on the processing

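No paired analysis was possible because neither table has columns for single fish; leaving out single fish was not run for the same reason. Sardine complement calls (17) numbered 10 at a mean of at least 10, 11 with 1 row per symbol and 5 in curated records, and 3 in rows with reads on both sides, an alternative chosen after seeing the data; each is a subset of the rows. Sardine clotting calls (16) numbered 10 with 1 row per symbol. The sardine complement median of 6.33 was 8.74 at a mean of at least 10, 2.17 in curated records, 1.22 with reads on both sides and 1.40 with rows at their bound. The clotting median of 2.73 was 2.04 in each of these last 3 settings and 1.77 with equal totals, a scaling also chosen after seeing the data. Mackerel complement calls (12) numbered 7 at an adjusted p under 0.01, 7 at a mean of at least 10 and 6 with 1 row per symbol, and the mackerel clotting median of -0.43 was -0.0402 at a mean of at least 10. A median counted as moved when it shifted by more than the median SE of its rows. No median crossed 0 in these settings, and the majority of calls kept its side in sardine complement, sardine clotting and mackerel complement. The exact test in the most abundant row per symbol was not among these settings. There the mackerel complement calls were nearly even, negative for C3, C8A, CFB and CFI and positive for C7, C8B and C9. Mackerel clotting calls, 4 on each side, changed with the setting: 4 positive and 3 negative at a mean of at least 10, 2 and 4 with 1 row per symbol, 4 and 5 at an adjusted p under 0.1, 3 and 4 by the exact test, and 4 and 2 by that test with equal totals. Few reads limit both tables: 12 of 48 mackerel member rows rested on under 10 reads, and 4 called sardine rows had bounds of at most 1.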

Other observations

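The weights of the recovered numbers bear on every error given above. In the sardine the 5 positive-side libraries entered the mean with weights of 0.142, 0.130, 0.129, 0.0877 and 0.0820 per read, and the negative side with 0.443. In 708 sardine rows with at least 3 negative-side and 8 positive-side reads, the deposited fold was 0.998 times (median; 0.883 to 1.18) the ratio of the weighted positive-side sum to the weighted negative-side number. The single number was thus weighted like all 5 libraries of the other side together. In the mackerel 358 pairs of read numbers occurred in several rows, and for all 358 those rows carried 1 identical fold change and 1 identical SE.

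A distant library was looked for in the 12 sardine member rows with at least 10 positive-side reads, and 0 passed Dixon's critical value of 0.71 for 5 libraries. The nearest were PROZ in its predicted row, where the gap was 0.613 of the whole range with 0, 2, 14, 8 and 5 reads, and C5, where it was 0.603.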
